A study of Sus scrofa with 15 samples.

Results

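Solute carriers are membrane proteins that move ions, nutrients, waste products and drugs across cell membranes and across the membranes of organelles. Most of their gene symbols, though not those of the SLCO family, begin with SLC followed by a family number. The array probes listed by a RefSeq transcript gave 3020 genes with a pig symbol, and every gene among them whose symbol begins in this way was taken. This gave 79 genes of 32 families, measured by 159 probes. Where a gene had several probes, the probe with the highest mean signal stood for it. The annotation used holds 355 such genes, and those without an assigned probe were not analysed here. Kidney RNA came from 15 female Yorkshire pigs 20 weeks old, with 1 array per pig. In all pigs the left kidney had been removed, and 1 week later the right kidney underwent warm ischemia of 90 minutes and was taken 72 hours after it. The 5 control pigs had no preconditioning. In remote ischemic preconditioning (rIPC) the right external iliac artery was clamped for 10 minutes and reopened for 10 minutes, in 2 cycles. It was done immediately before the ischemia in the 5 rIPCe pigs (early) and 24 hours before it in the 5 rIPCl pigs (late). There was no kidney without ischemia, so every difference below is between injured kidneys. The labels number the pigs of each group as separate animals.

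In the kidney, solute carriers do most of the work of reabsorption and secretion. In the proximal tubule, sodium-coupled carriers of the apical membrane take glucose, phosphate and amino acids from the filtrate, and facilitative carriers of the basolateral membrane pass them on to the blood. Organic anion and cation carriers of the basolateral membrane take up drugs and metabolic waste for secretion, and exchangers of chloride, bicarbonate and protons adjust acid-base balance along the whole nephron. The energy comes from the sodium gradient across the cell membrane.

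Signals are given as log2 of the processed intensity after quantile normalization, and a difference is a difference of group means on that scale. The SD in each group is over 5 arrays, except for SLC30A7, which had no value on rIPCe 5. A gene was called changed where its adjusted p from limma (Benjamini-Hochberg over all 43603 probes) was under 0.05. Of the 79 genes, 72 were measured well above background throughout at least 1 group and 68 on all 15 arrays. Of the others, SLC1A3, SLC22A13, SLC25A25 and SLC26A5 were well above background on some arrays only, and SLC7A3 and SLC26A3 on none. The share of spots well above background was 62.2% to 69.5% on the control arrays, 67.4% to 73.9% in rIPCe and 71.8% to 74.2% in rIPCl. There were 4 slides. Control arrays 1 to 4 shared a slide and rIPCl arrays 2 to 5 shared another, while control 5 lay with rIPCe 1 to 3, and rIPCl 1 with rIPCe 4 and 5. No slide held both a control and an rIPCl array. The probe-wise pooled SD within groups over the 72 genes ran from 0.13 (SLC30A7) to 1.05 (SLC30A2), with a median of 0.37.

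In rIPCl against control, 9 of the 79 genes fell and 2 rose. The fall was 11.4% of the solute carriers, beside 5.03% of all 3020 genes and 3.58% of all probes. The rise was 2.53%, beside 4.47% of all genes and 2.69% of all probes. The genes that fell were SLC26A4, SLC7A9, SLC4A4, SLC44A4, SLC35A3, SLC6A8, SLC25A23, SLC19A2 and SLC9A3R1, and those that rose were SLC5A4 and SLC27A1. They carry anions, amino acids, bicarbonate, choline, nucleotide sugars, creatine, mitochondrial substrates, thiamine, sugars and fatty acids, so no single substrate class held most of them. SLC9A3R1 is a member by its symbol only, since it encodes the scaffold protein NHERF1 and no carrier. The study listed SLC26A4, SLC7A9 and SLC44A4 among its altered genes from these same arrays, so their direction is not independent evidence. In RNA from whole tissue, fewer cells of a type and less RNA per cell cannot be told apart.

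Over all 79 genes, 48 had a lower mean in rIPCl than in control, which is 60.8% beside 51.5% of all genes. The median difference was -0.12, beside -0.02 for all genes with a symbol and -0.03 for all probes. The rIPCl arrays lay wholly below the control arrays for 10 solute carriers (12.7%, beside 7% of all genes) and wholly above them for 2 (2.53%, beside 3.85%). By the criteria of the study (at least 2-fold, unadjusted p under 0.05), 6 genes were lower (7.59%, beside 2.81% of all genes) and 3 higher (3.8%, beside 6.89%). At an unadjusted p under 0.05 alone, 21 were lower (26.6%, beside 17.3%) and 9 higher (11.4%, beside 17.8%).

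**Figure D1:**
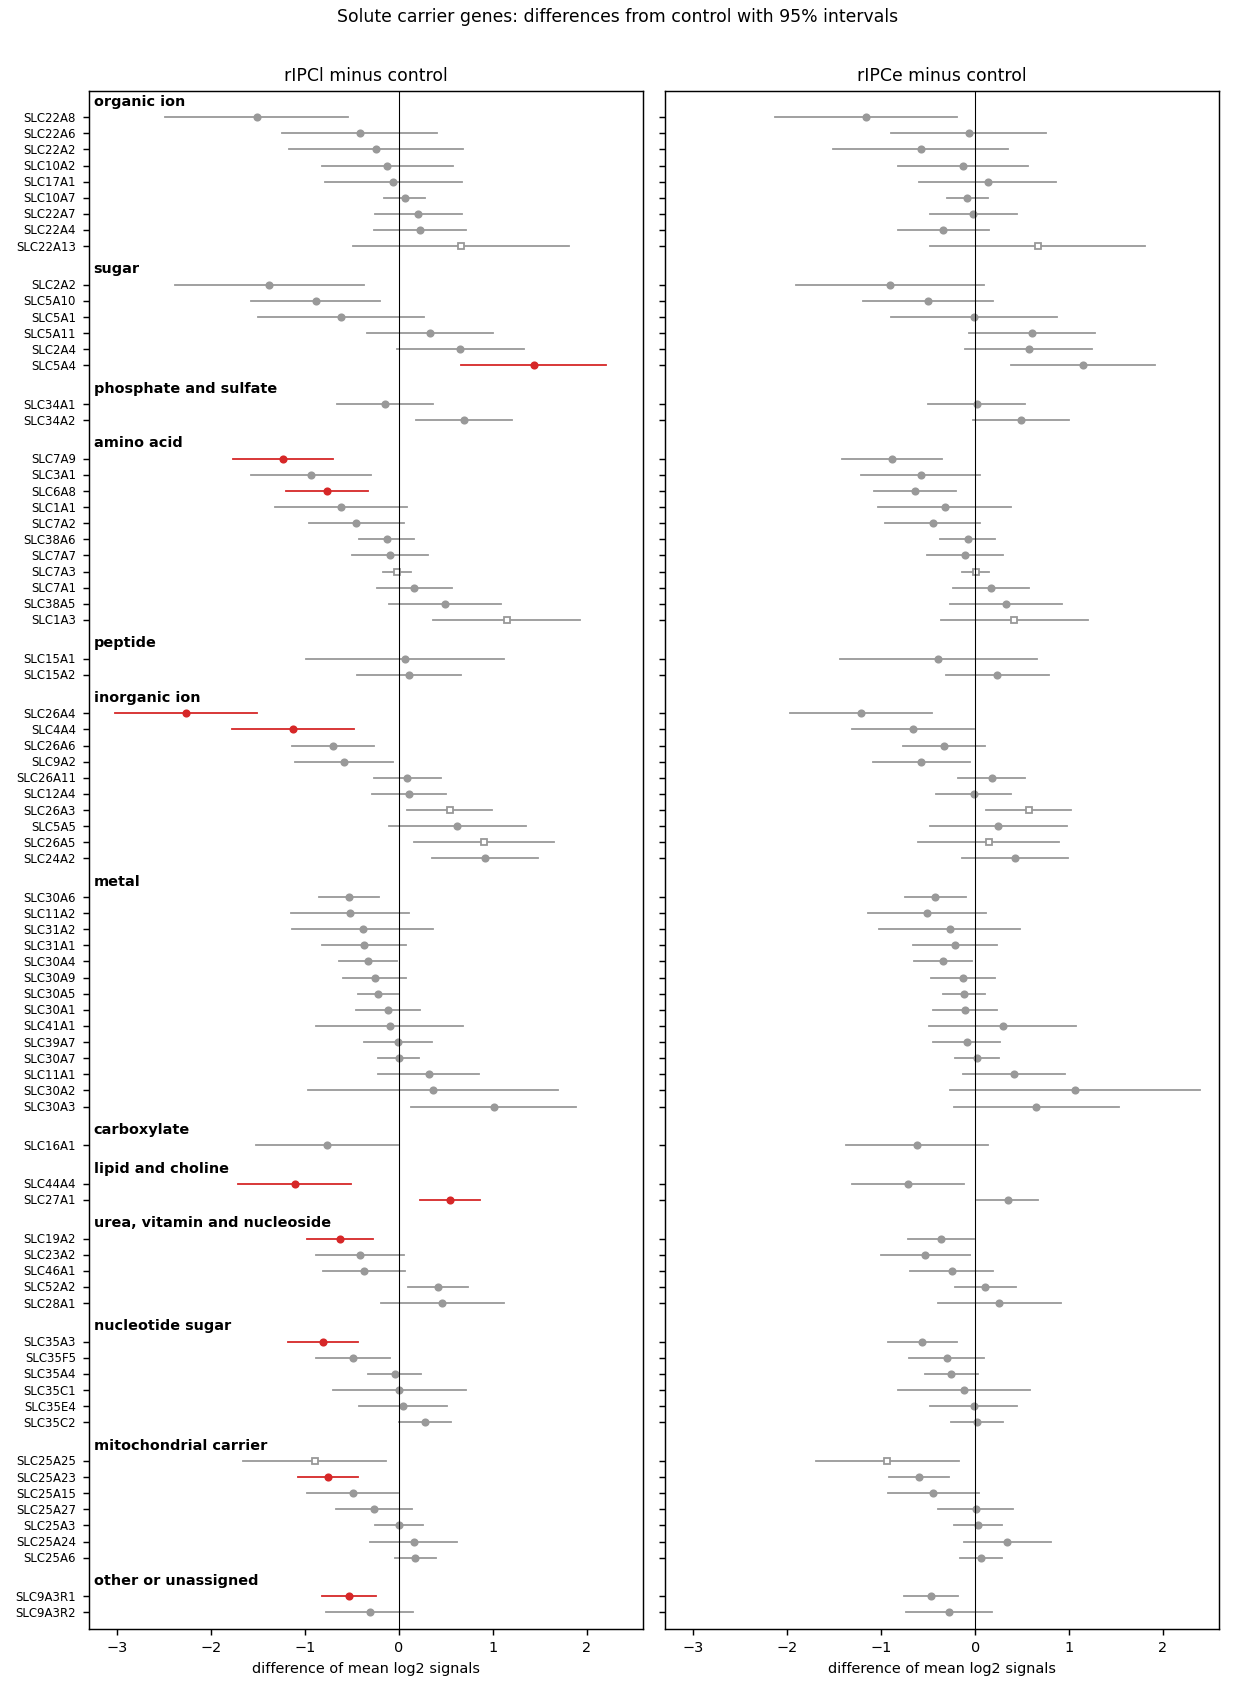
Difference of mean log2 signal from control for 77 of the 79 solute carrier genes, by substrate class, in rIPCl (left) and rIPCe (right). Points are the limma estimates from 5 arrays per group, except for SLC30A7, which had no value on rIPCe 5. Lines are their 95% intervals, and open squares are genes that were not measured throughout any group. Red marks the 11 genes with an adjusted p under 0.05. The red points stand in 8 classes on the left, and none stand on the right.

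Most of these calls were lost when certain single arrays were left out, and so were most calls over all probes. With control 2, rIPCl 3, rIPCl 4 or rIPCl 5 left out, only SLC26A4 of the 11 genes passed, and it was then the only solute carrier called. Over all probes 184, 263, 74 and 49 were called in these fits, in that order, against 2736 with all arrays. Without control 3 there were 3 solute carriers called, without control 4 there were 4, and without rIPCe 4 or rIPCl 2 there were 7. SLC26A4 alone passed without each of the 15 arrays in turn, with adjusted p of 0.00862 to 0.0499. Leaving out an array changed the sign of none of the 11 differences, but this is no test. For 8 of the genes the rIPCl and control arrays did not overlap, so the sign could not change. Leaving out an rIPCe array cannot alter these differences.

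Slide and group were largely confounded. With slide as a fixed block no solute carrier was called, beside 479 of all 43603 probes, and SLC26A4 had a difference of -3.94 (adjusted p = 0.0592). The differences of 9 of the other genes kept their sign in that fit, while that of SLC6A8 was 0.04. They were -1.57 for SLC4A4, -0.96 for SLC7A9, -0.57 for SLC25A23, -0.52 for SLC44A4 and -0.41 for SLC9A3R1. SLC35A3 shrank from -0.81 to -0.19 and SLC19A2 from -0.63 to -0.09. The genes that rose, SLC5A4 and SLC27A1, had 0.87 and 0.60. With slide as a random block (correlation 0.2281) none was called either, beside 0 of all probes. The differences were close to those reported, such as -2.50 for SLC26A4 and -1.20 for SLC7A9. The median over the 79 genes turned from -0.12 to 0.06 with the fixed block. Within the slide shared by control 5 and rIPCe 1 to 3, the rIPCe mean of SLC26A4 lay below the control array (difference -1.99). Within the slide shared by rIPCe 4, rIPCe 5 and rIPCl 1, the rIPCl array was lower again (difference -1.94). The median over all 79 genes was -0.06 within the first of these slides and 0.11 within the second. Since no slide held both control and rIPCl arrays, the fixed-block difference of a gene is the sum of its differences within these slides. For SLC26A4 the -3.94 thus rests on control 5 and rIPCl 1, linked through the rIPCe arrays. The within-slide values are no separate evidence.

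**Figure D2:**
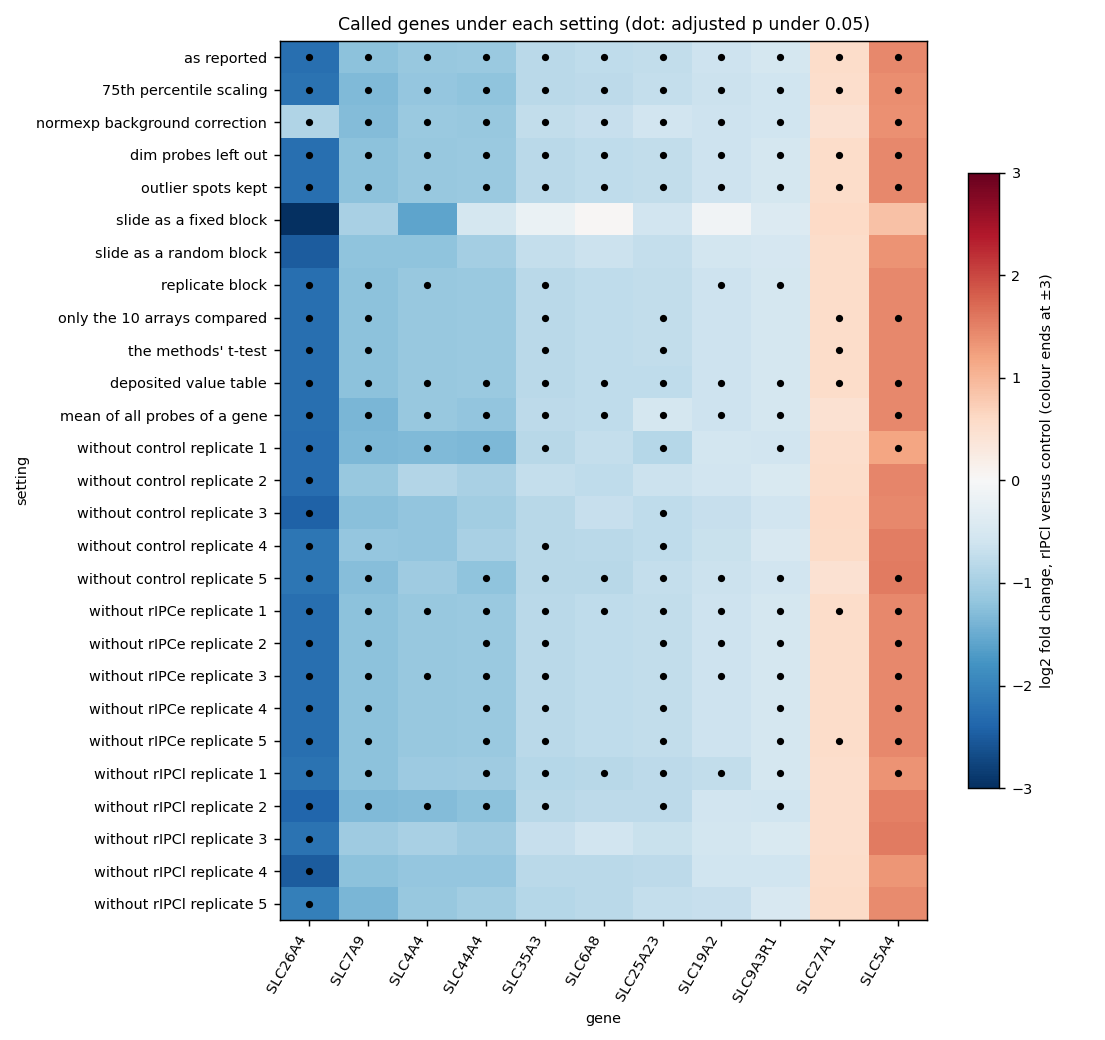
Log2 fold change in rIPCl versus control of the 11 called genes (columns) under each processing setting and with each array left out (rows), as colour, with a dot where the adjusted p was under 0.05. The SLC26A4 column has a dot in every row except the rows with slide as a block, where no gene has one.

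The inorganic ion carriers comprised 11 genes, of which 2 fell, 0 rose and 9 were not called. SLC26A4 encodes pendrin, the chloride-bicarbonate exchanger of bicarbonate-secreting intercalated cells in the collecting duct. Its log2 signals were 6.63, 6.68, 6.09, 7.17 and 7.08 on the control arrays, 4.95, 5.19, 5.12, 5.89 and 6.42 on the rIPCe arrays and 4.21, 4.95, 4.22, 5.35 and 3.59 on the rIPCl arrays. Every rIPCl array lay below every control array, the rIPCe arrays overlapped both groups, and rIPCl 5 was the lowest. The mean in rIPCl was 4.81-fold lower than in control, a difference of -2.27 ± 0.35 (SE; adjusted p = 0.0156). The exact permutation test gave p = 0.00794, the smallest that 2 groups of 5 arrays allow and the value that any gene without overlap gives. After normexp background correction the difference shrank to -0.91 and stayed called (adjusted p = 0.0109, limma). The size of the fall, 4.81-fold in the main fit, thus depended on how background was corrected. The gene had 1 probe.

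SLC4A4 encodes the electrogenic sodium-bicarbonate cotransporter by which proximal tubule cells return bicarbonate to the blood. Its signals were 10.86, 12.67, 11.40, 11.44 and 11.89 on the control arrays, 11.21, 11.20, 10.55, 10.80 and 11.19 on the rIPCe arrays and 10.33, 11.16, 9.91, 10.67 and 10.52 on the rIPCl arrays. Control 2 was high and control 1 lay among the rIPCl arrays, so that 4 of the 5 rIPCl arrays were below all controls. The rIPCl mean was 2.19-fold lower, with a difference of -1.13 ± 0.30 (SE; adjusted p = 0.0433). Without control 2 it was -0.88, the smallest value with any array left out.

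SLC26A6, a chloride and oxalate exchanger of the apical membrane, had a difference of -0.70 ± 0.20 (SE; adjusted p = 0.0542) and its second probe -0.65. SLC9A2, a sodium-proton exchanger, had -0.58 ± 0.24 (SE; adjusted p = 0.142), and its second probe gave -0.94. On the other side, SLC24A2, a potassium-dependent sodium-calcium exchanger, had 0.92 ± 0.26 (SE; adjusted p = 0.052), while its second probe was well above background on no array of the control group. None of the 3 passed in the main fit, while SLC26A6 and SLC24A2 did with dim probes left out and with 75th percentile scaling. SLC5A5, the iodide transporter, SLC26A11 and SLC12A4 had differences of 0.62, 0.09 and 0.11. SLC26A3 and SLC26A5 were not measured throughout any group, so no size is given for them.

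None of the 9 organic ion carriers was called by its main probe, the one with the highest mean signal. SLC22A8, the organic anion transporter OAT3 of the basolateral membrane, had the largest difference among them. Its signals were 11.35, 12.74, 11.87, 11.86 and 12.28 on the control arrays, 11.80, 11.49, 9.76, 10.51 and 10.73 on the rIPCe arrays and 10.73, 11.29, 9.12, 10.14 and 11.25 on the rIPCl arrays. All rIPCl arrays lay below all control arrays, the nearest pair being rIPCl 2 at 11.29 and control 1 at 11.35, and rIPCl 3 was far below the rest. The difference was -1.51 ± 0.45 (SE; adjusted p = 0.0587), or 2.86-fold, with an SD of 0.90 in rIPCl, and it was not called. The exact permutation p of 0.00794 is not adjusted and only restates that the arrays did not overlap. The gene passed where dim probes were left out (adjusted p = 0.0424) and with 75th percentile scaling (0.0319). SLC24A2, SLC26A6 and SLC30A6 also passed in both settings, and SLC2A2, SLC3A1 and SLC5A10, among other genes, with the scaling. Over all probes these settings called 3109 and 7728, against 2736 in the main fit. The study listed this gene from these arrays as well.

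SLC22A6, the related transporter OAT1, had signals of 11.13, 12.33, 11.52, 11.97 and 11.75 on the control arrays, 11.32, 12.24, 10.58, 12.39 and 11.82 on the rIPCe arrays and 11.26, 12.02, 10.48, 10.81 and 12.04 on the rIPCl arrays. The 3 groups overlapped throughout. The difference in rIPCl was -0.42 with a 95% interval of -1.24 to 0.41, which holds both no difference and a fall of 1. SLC22A2, the organic cation transporter OCT2, had means of 12.87 ± 0.23 in control, 12.29 ± 1.15 in rIPCe and 12.63 ± 0.46 in rIPCl, and rIPCe 1 and rIPCe 4 at 11.41 and 10.72 were lower than all other arrays. Its difference in rIPCl was -0.24 (-1.17 to 0.69), and its other probes gave -0.83 and -0.27. SLC17A1, an apical urate and phosphate transporter, had -0.06 (-0.79 to 0.67) by its main probe, but its second probe, well above background on all 15 arrays, gave -0.73 and passed (adjusted p = 0.0464). SLC22A7, OAT2, had 0.21 (-0.26 to 0.67). SLC22A4, a carnitine and ergothioneine transporter, had 0.23 by its main probe and -0.95 (adjusted p = 0.037) by its second, so its probes disagreed. SLC10A2, the apical bile acid transporter, had -0.12. SLC10A7 had 0.06, and its second probe -1.24. SLC22A13 was well above background on 1 control array and on no other.

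**Figure D3:**
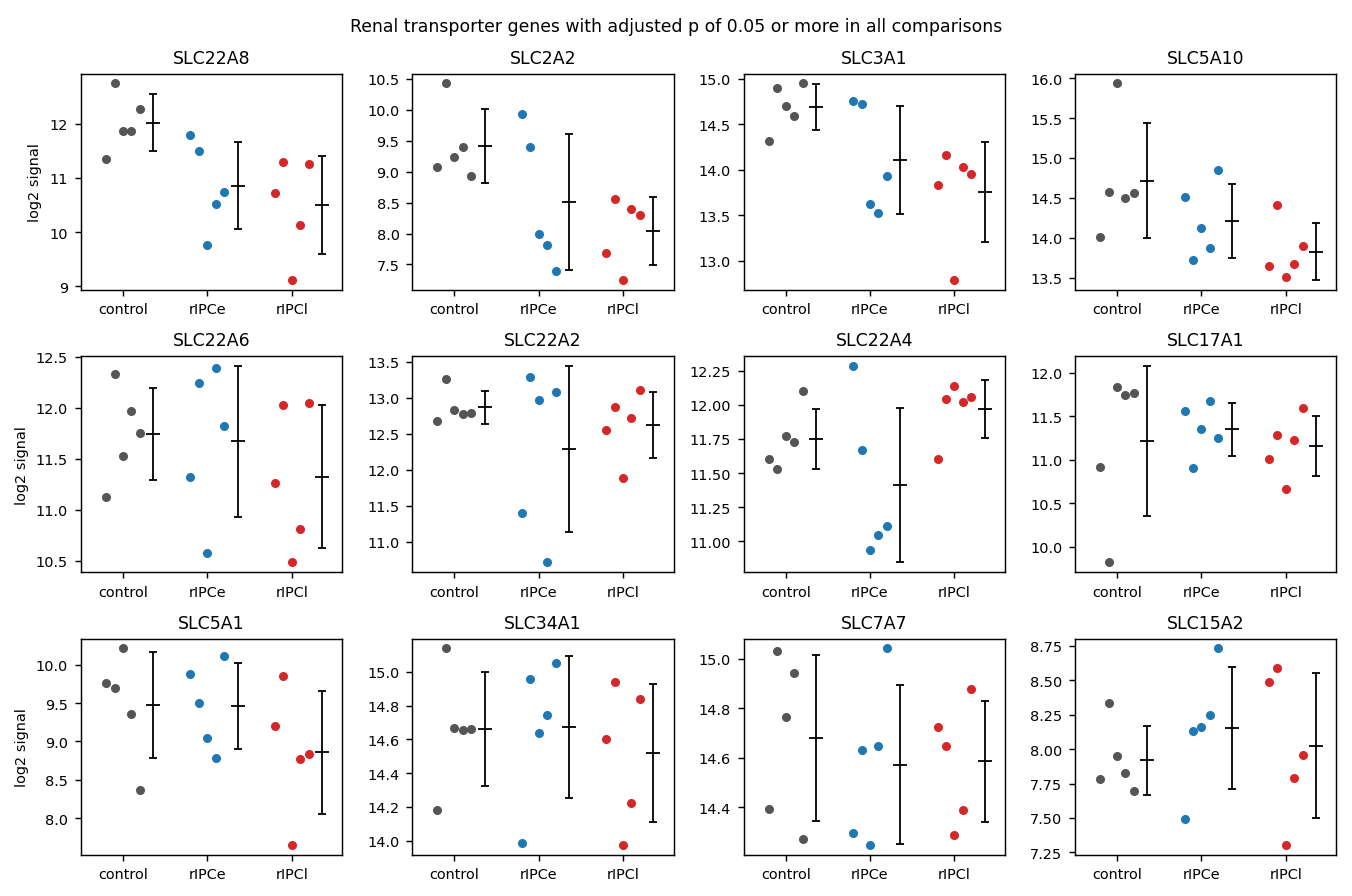
Log2 signal of 12 renal transporter genes that were not called in any comparison by the probe plotted, with 1 point per array and the mean and SD over 5 arrays beside each group. SLC22A8, SLC2A2 and SLC3A1 have all rIPCl points below all control points, and the groups overlap for the other 9.

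Of the 6 sugar carriers, SLC5A4 rose and 5 were not called. SLC5A4 encodes SGLT3 of the sodium-glucose cotransporter family. Its log2 signals were 9.79, 10.87, 10.78, 11.14 and 11.33 on the control arrays, 10.92, 11.58, 12.83, 12.43 and 11.90 on the rIPCe arrays and 12.58, 11.90, 11.68, 12.61 and 12.30 on the rIPCl arrays. All rIPCl arrays lay above all controls, and control 1 was the lowest array. The rIPCl mean was 2.70-fold higher, with a difference of 1.43 ± 0.36 (SE; adjusted p = 0.0367) and an exact permutation p of 0.00794. SLC2A2, the facilitative carrier GLUT2 by which glucose leaves the cell on the basolateral side, had signals of 9.07, 10.43, 9.24, 9.40 and 8.93 on the control arrays, 9.93, 9.40, 7.99, 7.81 and 7.40 on the rIPCe arrays and 7.69, 8.55, 7.25, 8.40 and 8.29 on the rIPCl arrays. Its rIPCl arrays also lay wholly on 1 side of the controls, but below them. The difference of -1.38 ± 0.47 (SE; adjusted p = 0.0831) was not called, and the arrays of the rIPCe group spread from 7.40 to 9.93. SLC2A2 passed with 75th percentile scaling and with only the 10 arrays compared.

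SLC5A10, a mannose and fructose cotransporter of the apical membrane, had a difference of -0.89 ± 0.32 (SE; adjusted p = 0.101) by its main probe and 0.37 by its second. SLC5A1, the high-affinity glucose cotransporter SGLT1, had -0.62 (-1.50 to 0.27), and its 4 other probes ran from -0.64 to -0.07. SLC2A4, the insulin-responsive GLUT4, had 0.66 (-0.02 to 1.33) with probes of either sign, and SLC5A11, an inositol cotransporter, had 0.33 (-0.34 to 1.00). The class median was -0.14, with differences from -1.38 to 1.43. The apical cotransporter SGLT2 (SLC5A2) was not analysed here.

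Neither of the 2 phosphate carriers was called. SLC34A1, the sodium-phosphate cotransporter of the proximal tubule that parathyroid hormone removes from the membrane, had signals of 14.18, 15.14, 14.67, 14.66 and 14.66 on the control arrays, 13.98, 14.96, 14.64, 14.74 and 15.06 on the rIPCe arrays and 14.60, 14.94, 13.98, 14.23 and 14.84 on the rIPCl arrays. The groups overlapped almost completely. The difference was -0.14 in rIPCl (-0.66 to 0.37) and 0.01 in rIPCe (-0.50 to 0.53), so a change of 2-fold in either direction lay outside both intervals. SLC34A2 was well above background on 0 control arrays, 2 rIPCe arrays and 5 rIPCl arrays and was not called. Its signals overlapped, with control 5 at 4.22 above rIPCl 3, rIPCl 4 and rIPCl 5 at 4.14, 4.17 and 3.70.

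Of the 11 amino acid carriers, SLC7A9 and SLC6A8 fell and 9 were not called. SLC7A9 encodes the light chain of the apical carrier for cystine and basic amino acids, whose loss causes cystinuria. Its log2 signals were 12.45, 13.30, 12.92, 13.25 and 12.76 on the control arrays, 12.47, 12.35, 11.52, 11.75 and 12.19 on the rIPCe arrays and 11.66, 12.00, 11.00, 11.63 and 12.20 on the rIPCl arrays. All rIPCl arrays were below all controls, and rIPCl 3 was the lowest. The rIPCl mean was 2.36-fold lower, with a difference of -1.24 ± 0.25 (SE; adjusted p = 0.0239) and an exact permutation p of 0.00794, and the second probe gave -1.50 (adjusted p = 0.0224).

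SLC3A1 encodes the heavy chain of the same carrier. Its signals were 14.31, 14.90, 14.70, 14.59 and 14.95 on the control arrays, 14.76, 14.72, 13.63, 13.52 and 13.93 on the rIPCe arrays and 13.83, 14.16, 12.79, 14.03 and 13.95 on the rIPCl arrays. The rIPCl arrays again lay wholly below the controls, with rIPCl 3 far below the other 4. The difference was -0.94 ± 0.30 (SE; adjusted p = 0.0683). Its 3 other probes gave -0.74, -1.08 and -1.18, and the last of them passed (adjusted p = 0.0394). SLC7A7, the light chain of the basolateral exit carrier for basic amino acids, stood in contrast with a difference of -0.10 (-0.50 to 0.31) and 4 probes between -0.28 and -0.05. The difference between these genes was not tested.

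SLC6A8, the creatine transporter, had signals of 11.84, 11.64, 12.00, 11.45 and 11.39 on the control arrays, 11.52, 10.90, 10.95, 10.77 and 10.98 on the rIPCe arrays and 11.18, 11.00, 10.15, 11.05 and 11.12 on the rIPCl arrays. All rIPCl arrays were below all controls, by the gap between 11.18 and 11.39 at the nearest, and rIPCl 3 lay far below the rest. The difference was -0.76 ± 0.20 (SE; adjusted p = 0.0439). SLC1A1, the apical glutamate transporter, had -0.62 (-1.32 to 0.09) and 3 other probes of -0.90 to -0.54. SLC7A2 had -0.45, SLC7A1 0.16, SLC38A6 -0.13 and SLC38A5 0.49, and none of them passed. SLC1A3 was well above background on 2 rIPCl arrays only. The peptide transporters SLC15A1 and SLC15A2 had 0.07 (-0.99 to 1.12) and 0.11 (-0.44 to 0.66), with no call.

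**Figure D4:**
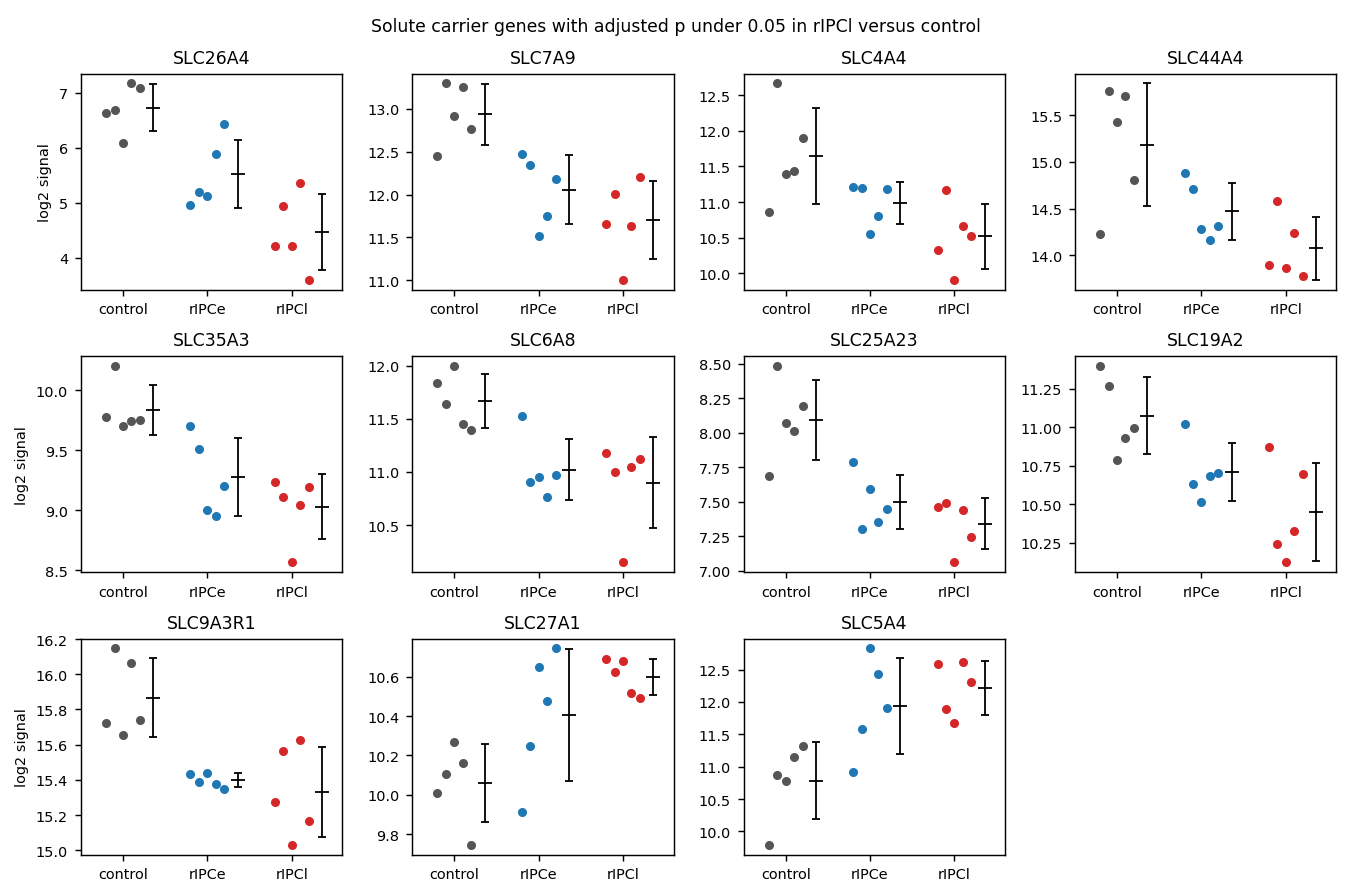
Log2 signal on each array of the 11 solute carrier genes called in rIPCl versus control, with the mean and SD over 5 arrays beside each group. All 9 genes on the falling side and both on the rising side have an rIPCe mean between the control and rIPCl means. This order was not tested, since the genes were chosen by their rIPCl difference from the same controls. The rIPCl points overlap the control points for SLC4A4, SLC44A4 and SLC19A2 only.

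Among the carriers of lipids and vitamins, SLC44A4 and SLC19A2 fell and SLC27A1 rose. SLC44A4 is a choline transporter-like protein that also carries thiamine pyrophosphate. Its signals were 14.23, 15.76, 15.43, 15.71 and 14.81 on the control arrays, 14.88, 14.71, 14.29, 14.16 and 14.32 on the rIPCe arrays and 13.90, 14.59, 13.86, 14.24 and 13.78 on the rIPCl arrays. Control 1 lay among the rIPCl arrays, and the other 4 controls were above all of them. The rIPCl mean was 2.16-fold lower, with a difference of -1.11 ± 0.28 (SE; adjusted p = 0.0371), and the 4 remaining probes gave -1.37 to -0.94. SLC19A2, a thiamine transporter, had 11.08 ± 0.25 in control, 10.71 ± 0.19 in rIPCe and 10.45 ± 0.32 in rIPCl and a difference of -0.63 ± 0.16 (SE; adjusted p = 0.0422), with 4 of 5 rIPCl arrays below all controls. SLC27A1, which takes up long-chain fatty acids, had signals of 10.01, 10.11, 10.27, 10.16 and 9.75 on the control arrays, 9.91, 10.25, 10.65, 10.47 and 10.74 on the rIPCe arrays and 10.69, 10.62, 10.68, 10.52 and 10.49 on the rIPCl arrays. Its rIPCl arrays lay above all controls and within a narrow range. The rIPCl mean was 1.46-fold higher, with a difference of 0.54 ± 0.15 (SE; adjusted p = 0.048), and the 2 remaining probes gave 0.44 and 0.37.

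The folate carrier SLC46A1 and the ascorbate carrier SLC23A2 had differences of -0.37 and -0.41. The riboflavin carrier SLC52A2 had 0.41 by its main probe and -0.01 and -0.07 by the others. The nucleoside carrier SLC28A1 had 0.46. SLC16A1, the lactate carrier MCT1, had -0.76 ± 0.35 (SE; adjusted p = 0.183), and its 3 probes ran from -0.96 to -0.66. None of these 5 was called.

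The 14 metal carriers had no call by their main probes, although 11 of them had a lower mean in rIPCl, with a class median of -0.17. SLC30A6, a zinc carrier of the Golgi, came closest. Its signals were 8.08, 8.46, 8.03, 8.39 and 7.73 on the control arrays, 7.72, 8.07, 7.71, 7.60 and 7.48 on the rIPCe arrays and 7.72, 7.69, 7.33, 7.67 and 7.64 on the rIPCl arrays, so that rIPCl lay wholly below control by the narrow gap between 7.72 and 7.73. The difference was -0.53 ± 0.15 (SE; adjusted p = 0.0507), and its second probe gave -0.56. Among the 8 members of this zinc family, 6 had a lower mean, and the differences ran from -0.53 to 1.01 (SLC30A3, adjusted p = 0.135). The iron carrier SLC11A2 had -0.52 (-1.15 to 0.10), and control 5 at 7.49 and rIPCl 3 at 7.28 stood apart from the rest of their groups. SLC11A1, of phagocyte endosomes, had 0.32, and the copper carriers SLC31A1 and SLC31A2 had -0.37 and -0.38.

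Inside the cell, SLC35A3 and SLC25A23 fell. SLC35A3 brings UDP-N-acetylglucosamine into the Golgi. Its signals were 9.78, 10.21, 9.70, 9.75 and 9.75 on the control arrays, 9.71, 9.51, 9.00, 8.95 and 9.21 on the rIPCe arrays and 9.23, 9.11, 8.57, 9.04 and 9.19 on the rIPCl arrays. The rIPCl arrays were wholly below the controls, and control 2 and rIPCl 3 stood apart within their groups. The difference was -0.81 ± 0.17 (SE; adjusted p = 0.0268), and the second probe gave -0.77 (adjusted p = 0.021). The other 5 nucleotide sugar carriers were not called, with differences from -0.49 (SLC35F5) to 0.28 (SLC35C2).

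SLC25A23 is a calcium-regulated carrier of ATP-Mg and phosphate in the inner mitochondrial membrane. Its signals were 7.69, 8.48, 8.07, 8.01 and 8.19 on the control arrays, 7.79, 7.30, 7.59, 7.35 and 7.45 on the rIPCe arrays and 7.46, 7.49, 7.06, 7.44 and 7.25 on the rIPCl arrays. All rIPCl arrays lay below all controls, within a range of 7.06 to 7.49. The difference was -0.75 ± 0.15 (SE; adjusted p = 0.0235), against -0.30 by the second probe. The other 7 mitochondrial carriers were not called. SLC25A3, the phosphate carrier, had 0.00 (-0.25 to 0.25), and SLC25A6, an ADP/ATP carrier, had 0.18 (-0.05 to 0.40). SLC25A15, the ornithine carrier, had -0.49 ± 0.22 (SE; adjusted p = 0.179). SLC25A25 was well above background on 3 control, 1 rIPCe and 2 rIPCl arrays.

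SLC9A3R1 encodes NHERF1, the scaffold that holds several apical carriers, SLC34A1 among them, at the brush border. Its signals were 15.72, 16.15, 15.65, 16.07 and 15.74 on the control arrays, 15.44, 15.39, 15.44, 15.37 and 15.35 on the rIPCe arrays and 15.28, 15.57, 15.03, 15.63 and 15.17 on the rIPCl arrays. All rIPCl arrays and all rIPCe arrays lay below all control arrays. The rIPCl mean was 1.45-fold lower, with a difference of -0.53 ± 0.13 (SE; adjusted p = 0.0366). Its relative SLC9A3R2 had -0.31 (-0.77 to 0.15).

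Different probes of a gene mostly gave the same sign, but 35 genes had only 1 probe. Among these were the called genes SLC26A4, SLC4A4, SLC6A8, SLC5A4, SLC19A2 and SLC9A3R1, and also SLC22A8 and SLC2A2. Of 37 genes with more than 1 probe measured throughout a group, 25 had probes of 1 sign in rIPCl against control, and in 0 of the other 12 did probes of opposite sign both have an unadjusted p under 0.05. The range over probes exceeded 1 in 3 genes, which were SLC10A7, SLC22A4 and SLC5A10. In 4 genes not called by the main probe another probe passed, with differences of -0.73 for SLC17A1, -0.95 for SLC22A4, -0.52 for SLC30A9 and -1.18 for SLC3A1 (adjusted p of 0.0464, 0.037, 0.0326 and 0.0394, limma).

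In rIPCe against control, 0 of the 79 genes were called by limma, beside 0% of all 3020 genes and 0.00229% of all probes. At an unadjusted p under 0.05, 15 were lower (19%, beside 10.1% of all genes) and 3 higher (3.8%, beside 5.99%), and 49 had a lower mean (62%, beside 53.8%). The median difference was -0.11, beside -0.03 for all genes. By the criteria of the study, SLC26A4 and SLC22A8 were lower (2.53%, beside 1.13% of all genes) and SLC5A4 higher (1.27%, beside 1.56%). The rIPCe comparison uses the same 5 control arrays as the rIPCl comparison, so the values of both are set side by side with no test of their likeness. For SLC26A4 the difference was -1.21 in rIPCe and -2.27 in rIPCl. It was 1.15 and 1.43 for SLC5A4, -0.88 and -1.24 for SLC7A9, and -1.16 and -1.51 for SLC22A8. SLC25A23 came closest to a call in rIPCe, with -0.59 (adjusted p = 0.187, limma). SLC9A3R1 (-0.47, adjusted p = 0.197) was the 1 measured gene whose rIPCe arrays lay wholly below the controls (1.28% of the solute carriers, beside 2.06% of all genes), and SLC26A3, below background, was the 1 gene wholly above them (beside 0.465%).

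In rIPCl against rIPCe, 0 genes were called by limma, beside 0% of all genes and of all probes, so no solute carrier was shown to differ by the time at which preconditioning was given. At an unadjusted p under 0.05, 1 gene was lower (1.27%, beside 1.39% of all genes) and 2 were higher (2.53%, beside 3.34%). The lower gene was SLC26A4, with a difference of -1.05 (95% interval -1.81 to -0.30, adjusted p = 0.979, exact permutation p = 0.0476). The higher ones were SLC22A4, with 0.56 (0.08 to 1.05) by its main probe but -0.10 (-0.61 to 0.41) by its second, and SLC26A5, which was well above background on 3 rIPCl arrays and no others. For the other called genes the intervals held 0 but were wide, such as -0.89 to 0.17 for SLC7A9, -1.12 to 0.18 for SLC4A4 and -0.49 to 1.05 for SLC5A4. The median over the 79 genes was -0.03, beside 0.02 for all genes.

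Other genes of renal transport were counted as a list of 46, of which 23 had a probe. It held pumps, channels, scaffolds, enzymes, receptors and regulators, and also ABC transporters and carriers of the SLCO family. AQP1 and HNF4A are also among the proximal tubule markers below, and AQP2 and AQP3 among the distal ones, so the lists are not separate. In rIPCl against control, 2 of the 23 fell, 0 rose and 21 were not called, beside falls in 5.03% and rises in 4.47% of all genes. A higher mean was found for 4 of the 23, and the median difference was -0.43. CA4, the membrane carbonic anhydrase that works with SLC4A4 in bicarbonate reabsorption, fell by 1.20 on the log2 scale (SE 0.28, adjusted p = 0.0328, limma). The other, SLCO1A2, a carrier of the SLCO family, was well above background on no array. ATP1B1, the beta subunit of the sodium pump, had a difference of -0.43, AQP1, the water channel of the proximal tubule, had -0.96 (adjusted p = 0.0923), and the transcription factor HNF4A had 0.31. The median of the list per array was -0.27 to 0.18 in control, -0.44 to 0.02 in rIPCe and -0.58 to -0.22 in rIPCl.

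Markers of the cells in the sample moved in the same comparison, in which 5.03% of all 3020 genes fell and 4.47% rose. The kidney markers were present, with all 12 measured proximal tubule markers and all 8 measured distal and collecting duct markers well above background on every array. Of the 12 proximal tubule markers, which hold no SLC gene, BHMT (-2.47) and FBP1 (-0.91) fell in rIPCl, 0 rose and 10 were not called, with a median of -0.44. A higher mean was found for 3 of them, GATM (1.05, adjusted p = 0.104, limma), GGT1 (0.47) and HNF4A (0.31). The median of the 12 per array ran from -0.69 to 0.44 in control, -0.57 to 0.34 in rIPCe and -0.79 to 0.11 in rIPCl. None of the 8 distal markers was called (median 0.15), nor any of the 3 endothelial ones (-0.03). Among 9 leukocyte markers LYZ and CD79A rose (median 1.30), with medians per array of -0.51 to 1.15 in control and 0.22 to 2.66 in rIPCl. Among 6 injury markers CLU and VCAM1 rose (median 1.34), with -0.96 to 1.30 in control and 1.08 to 1.64 in rIPCl. Among 3 fibroblast markers LUM rose (median 0.96). Their part in the differences of the solute carriers was not tested.

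Single animals stood out in these medians. The median over the 79 solute carriers, relative to the control means, was -0.07 to 0.09 on the control arrays, -0.25 to -0.05 on the rIPCe arrays and -0.46 to -0.03 on the rIPCl arrays. The lowest, -0.46, was rIPCl 3, which also had the highest leukocyte median of all arrays (2.66) and the lowest proximal tubule median (-0.79). Without it the median difference of the 79 genes in rIPCl was -0.02. Control 1 had a leukocyte median of 1.15, an injury median of 1.30 and a proximal tubule median of -0.69, each nearer to the rIPCl arrays than to the other controls, while its fibroblast median of -0.05 lay among those of the other controls. Of the 11 called genes, control 1 was the control array nearest to the rIPCl mean for 4 (SLC4A4, SLC44A4, SLC25A23 and SLC7A9) and the farthest from it for 2 (SLC19A2 and SLC5A4), and control 3 was the nearest for 5.

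**Figure D5:**
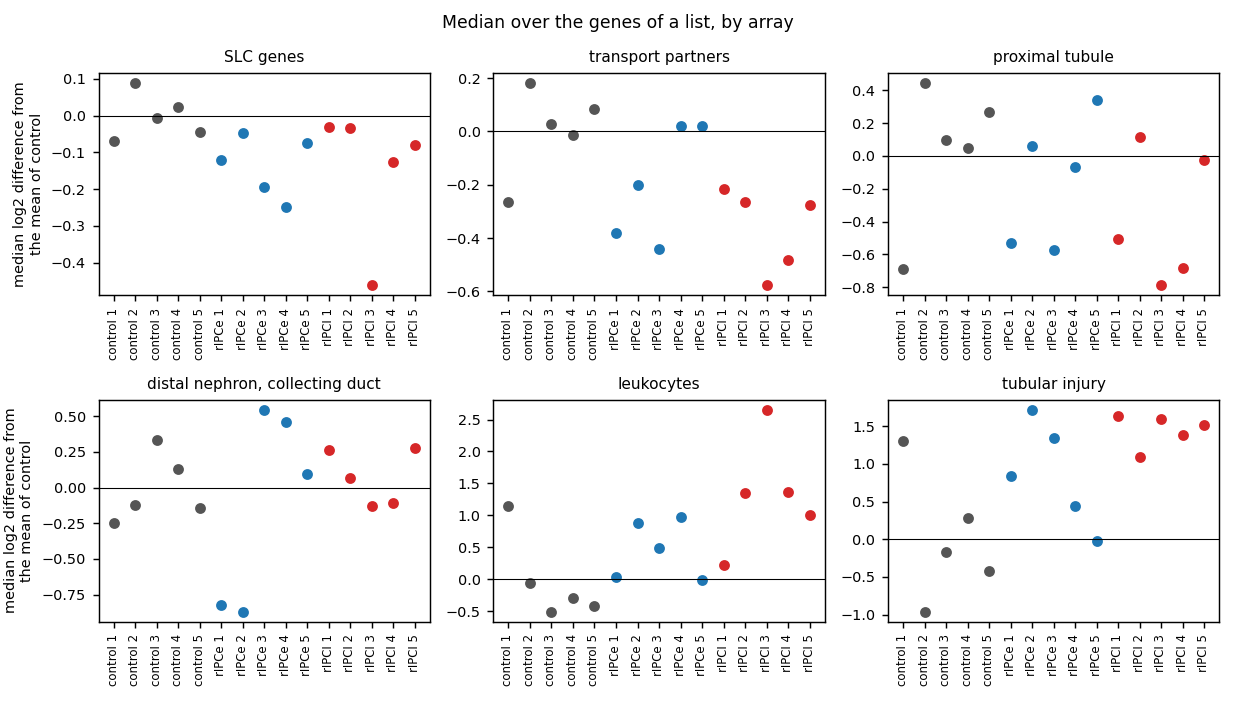
Median over the genes of a list, on each array, of the log2 difference from the control mean, for the 79 solute carriers and 5 other gene lists, with 1 point per array coloured by group (each panel has its own axis). The point of rIPCl 3 is the lowest for the solute carriers, at -0.46, and the highest for the leukocyte markers, at 2.66.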

How the data were processed

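RNA of 15 pig kidneys was measured on Agilent porcine arrays with a single dye. What the authors deposited is the scanner software's output (Agilent Feature Extraction, version 11.0.1.1), which gives an intensity per spot on a linear scale that, per the file headers, was corrected for background within the array and not normalized between arrays. The genome build behind the probes is not given in the sources used here. A second deposited file with a value per probe holds the same intensities and served as an alternative.

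Here control spots were left out, spots marked as outliers were treated as missing, and log2 of the processed signal was quantile normalized over the 15 arrays, as the study's methods name. Symbols came from RefSeq transcripts of the Sscrofa11.1 annotation (6686 probes). Probes listed in other ways have no symbol here. A few genes counted in the totals are not reported here by name. In R 4.3.3 (with version 1.17.8 of data.table), lmFit and eBayes of limma 3.58.1 estimated the 3 group means for each of the 43603 probes. Intervals are 95% intervals of that fit. A p under 0.05 after Benjamini-Hochberg adjustment over all probes was a call. The scripts were tested on simulated data with known shifts. Exact permutation tests were two-sided over all assignments of 10 arrays to groups of 5. Genes with values per array were those of a list of 84 known renal carriers, of which 29 had a probe, those the study lists (4 of 6 had a probe), and the 10 with the smallest p in each comparison. Members, classes and gene lists were chosen with earlier results of these data known. The number of arrays limits the precision. The alternatives are given in the closing section, with the numbers of arrays left out in turn. Replicate numbers did not pair the arrays, since residuals of same-numbered arrays correlated at -0.27 to 0.07.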

Additional observations from a re-analysis of the deposited data

Results flagged for a closer look

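In groups of 5 arrays, 16 of the 129 gene and group sets checked over 43 named solute carriers held 1 array far from the others, measured by its gap to the nearest array against the range of the group. Chance flags about 1 in 20 groups. The array rIPCl 3 gave 6 of the 16, all on the low side, with log2 signals of 7.28 for SLC11A2, 7.33 for SLC30A6, 8.57 for SLC35A3, 7.17 for SLC35A4, 12.79 for SLC3A1 and 10.15 for SLC6A8. Also in rIPCl, array 1 was low for SLC22A4 (11.60) and SLC24A2 (5.93), and array 2 was high for SLC16A1 (7.61). In rIPCe, array 1 was high for SLC6A8 (11.52) and low for SLC28A1 (7.50). In the control group, array 1 was high for SLC22A13 (4.61), array 2 was high for SLC22A2 (13.27) and SLC35A3 (10.21), and array 5 was low for SLC11A2 (7.49) and high for SLC26A3 (1.42), a probe well above background on no array.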

How the results depend on the processing

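In rIPCl versus control, 9 solute carriers were called lower and 2 higher. Subtracting each array's 75th percentile gave 16 and 6, with all 11 among them and also SLC7A3, well above background on no array. Calls over all probes rose as well, from 2736 to 7728, and the median over all probes moved from -0.03 to -0.11. Slide as a fixed block gave 0 and 0, with a median difference of 0.0627 and a reversed sign for SLC6A8 (0.0361). Slide as a random block gave 0 and 0. Over all probes these fits called 479 and 0. With only the 10 arrays compared, 5 were called lower, and averaging all probes of a gene left 1 called higher. The methods' t-test gave 4 and 1 after Benjamini-Hochberg adjustment, and 6 and 3 at the study's criteria. With each array left out in turn, 1 to 11 were called lower and 0 to 4 higher, beside 49 to 4913 called in either direction over all probes. With replicate number as a block, 0 were called higher and 7 lower, and 6 of the 11 calls stayed. The numbers do not mark pairs (0 of 15 arrays correlated best with an array of their own number). The cause of these shifts was not tested. Other settings kept both counts within 1.5 times. In rIPCe versus control and rIPCl versus rIPCe, no solute carrier was called under any setting. The medians ran from -0.16 to -0.06 and from -0.05 to 0.11 over the settings with all arrays. Normexp on the mean signal was not run, and the median signal was used, chosen after seeing the data.

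The precision is limited by 5 arrays per group and, for the 7 genes not well above background on all arrays of any group, by background. For SLC26A4 the size of the difference in rIPCl also depended on the background correction (-2.27, or -0.91 with normexp).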
